A study of Homo sapiens with 12 samples.

Results

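The 44 genes described here encode the translation initiation and elongation factors of human cells. They were chosen as a list of symbols, with earlier results of these data known. All 44 were found by Ensembl identifier among the 20036 genes of the expression table. They were followed in MV-4-11 cells, a line of human acute myeloid leukaemia that carries a KMT2A fusion and depends on an activated FLT3 receptor kinase, labelled wild type in all groups. RNA was sequenced in 4 groups of 3 libraries. The groups were DMSO (the solvent), HPA-12 ((1R,3S)-HPA-12, which blocks CERT, the protein that carries ceramide from the endoplasmic reticulum to the Golgi), crenolanib (an inhibitor of FLT3) and the combination. Per the series text, the treated cells were exposed for 48 h, the time of the DMSO group is not stated, and no dose is named. Separate cultures for the 3 libraries of a group are not stated, so p-values measure only how these libraries spread, and that spread may be technical.

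Translation starts when eIF2 brings the initiator tRNA, in a complex with GTP, to the small ribosomal subunit together with eIF1, eIF1A, eIF3 and eIF5. The exchange factor eIF2B reloads eIF2 with GTP, and phosphorylation of the alpha subunit of eIF2 turns it into an inhibitor of eIF2B, which is the common step of the integrated stress response. The cap-binding complex eIF4F (eIF4E, the scaffold eIF4G and the helicase eIF4A) recruits the mRNA, and hypophosphorylated 4E-binding proteins hold eIF4E away from eIF4G when the kinase mTOR is inactive. Elongation then needs eEF1A, its exchange factor eEF1B and the translocase eEF2, which eEF2 kinase inhibits by phosphorylation. The values below are transcript levels, and neither phosphorylation nor protein was measured.

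Many transcripts of elongation factors and of some eIF3 subunits begin with a C followed by an unbroken run of pyrimidines, the 5′ terminal oligopyrimidine (TOP) tract, through which mTOR and LARP1 control their translation and stability. RefSeq promoter sequences (GRCh38.p14, 250 bases before to 50 after each annotated start) were matched by symbol for 36 of the 44 genes, with 50 starts in all. No promoter was matched for EEF1D, EIF2S2, EIF3A, EIF3E, EIF3G, EIF3H, EIF3L and EIF4EBP1, so no motif was searched in these genes. A C at the annotated start followed by at least 4 bases that are C or T was present for 10 of the 36 genes (27.8%). Over the 9058 tested genes with a matched promoter it was present for 7.65%, and over all 35116 promoters of the table for 4.07%. The 10 starts are shown because their genes are compared with the other members at the end. Each line gives 30 bases centred on the start, 5′ to 3′, with the pyrimidine tract that begins at the start in capitals:
EEF1A1 (chr6:73521018-73521047, - strand): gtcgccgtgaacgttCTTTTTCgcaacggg
EEF1B2 (chr2:206159880-206159909, + strand): ccggtctcttcgggtCCTTTTTCCTCTCTT
EEF2 (chr19:3985449-3985478, - strand): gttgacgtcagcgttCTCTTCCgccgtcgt
EIF2S3 (chrX:24054941-24054970, + strand): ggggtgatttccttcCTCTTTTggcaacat
EIF3D (chr22:36529152-36529181, - strand): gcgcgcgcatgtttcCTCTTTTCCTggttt
EIF3F (chr11:7987322-7987351, + strand): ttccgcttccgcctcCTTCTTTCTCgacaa
EIF3K (chr19:38619173-38619202, + strand): ttccgtttccaccacCTCTTCCTgttcccg
EIF3M (chr11:32583816-32583845, + strand): gcgcggcccagttccCTTTTCCggtcggcg
EIF4A2 (chr3:186783562-186783591, + strand): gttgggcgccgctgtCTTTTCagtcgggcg
EIF4B (chr12:53006441-53006470, + strand): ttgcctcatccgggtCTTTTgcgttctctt
The longest of these tracts, that of EEF1B2, fills all 15 bases shown after the start, and the shortest, that of EIF4B, has 5 pyrimidines.

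The E-box CACGTG, the preferred site of MYC and MAX, is the same on both strands. It was present in a promoter of 8 of the 36 genes (22.2%), against 12.9% of the tested genes and 7.26% of all promoters. The genes were EEF2K, EIF2B3, EIF3F, EIF3K, EIF4B, EIF4E, EIF4G1 and EIF4H. EIF4E and EIF4G1 each had 2 copies in 1 promoter, and these 250 bases before the start are shown with the E-boxes in capitals:
EIF4E (chr4:98929134-98929383, - strand): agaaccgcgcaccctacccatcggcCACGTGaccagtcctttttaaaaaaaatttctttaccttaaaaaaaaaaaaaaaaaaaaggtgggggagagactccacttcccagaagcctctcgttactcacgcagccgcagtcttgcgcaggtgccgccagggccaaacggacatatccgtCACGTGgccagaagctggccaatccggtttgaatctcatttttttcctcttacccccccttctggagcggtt
EIF4G1 (chr3:184314356-184314605, + strand): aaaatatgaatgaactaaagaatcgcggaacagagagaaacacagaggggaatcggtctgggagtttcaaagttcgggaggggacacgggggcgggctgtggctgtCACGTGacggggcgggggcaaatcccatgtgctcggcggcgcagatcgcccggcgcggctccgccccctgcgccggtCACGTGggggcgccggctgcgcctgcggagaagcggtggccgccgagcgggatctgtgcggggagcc
In EIF4E the E-boxes began 225 and 72 bases before the start, and in EIF4G1 144 and 67 bases before it. The motif TGATGNAA, a form of the element read by ATF4, was searched on both strands and was in none of the 50 promoters. It was present for 2.62% of the tested genes and in 3.62% of all promoters. At so low a share, its absence from the 36 genes says little about the members.

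Estimated depth was 13.6 to 15.99 M reads in the DMSO libraries, 12.1 to 12.8 in those of HPA-12, 10.1 to 10.2 in those of crenolanib and 4.40 to 5.07 in those of the combination. The 13 mitochondrially encoded genes held 19.6 to 20% of the FPKM sum in DMSO, 21.1 to 22.1% under HPA-12, 35.9 to 36.2% under crenolanib and 61.6 to 62.6% under both. The summed level of 11 erythroid markers was 77.3 to 84.9 FPKM in DMSO, 214 to 219 under HPA-12, 4304 to 4577 under crenolanib and 26979.8 to 27348 under both, most of it HBB, with 3, 7, 11 and 11 of the 11 at a mean of at least 1 FPKM. The 11 myeloid markers summed to 1315 to 1326, 725 to 745, 1107 to 1126 and 739.7 to 786 FPKM in the same order, with 10 or 11 of them at a mean of at least 1 FPKM. Genes of this list went different ways. Mean MPO was 391 FPKM in DMSO, 15.9 under HPA-12, 344 under crenolanib and 429 under both. FLT3 had 94.6, 156, 130 and 58.4 FPKM in these groups, and CEBPA 113, 98.1, 55.3 and 14.4. The 5 lymphoid markers summed to 2.37 to 7.04 FPKM over all libraries. The 5 stromal and epithelial markers summed to at most 0.563 FPKM outside the combination group and to 1.16 to 11.0 in it, with EPCAM at 0 in that group and KRT19 at 0 in every library. The part of these shifts in the results below was not tested, and in such bulk RNA fewer cells of a type and less RNA per cell cannot be told apart. FPKM are scaled to the reads of a library, so a higher share of reads for some transcripts goes with a lower share for the others. The FPKM sum itself is not fixed, and was 254624 to 260318 in DMSO and 493280 to 500569 in the combination. How much of the lower values of other genes goes with the mitochondrial share was not tested. The median change of all 11149 tested genes was -0.62 on the log2 scale for combination vs DMSO as deposited, and -0.12 after median-ratio scaling, which sets the libraries by the gene-wise median ratio. Upper-quartile scaling gave -0.04, whereas a total without mitochondrial genes gave -0.52, near the deposited value. For each single agent median-ratio scaling moved the median by less than 0.1. Fold changes of the combination are therefore given as deposited and after median-ratio scaling (called scaled).

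In DMSO the elongation factor genes EEF2 and EEF1A1 were the most abundant members per length, whereas EEF1D, a subunit gene of eEF1B, had a mean of 16.0 FPKM. EEF2, the translocase, had 1631, 1638 and 1654 FPKM in the 3 libraries, and EEF1A1, which delivers aminoacyl-tRNA, had 1169.6, 1120.4 and 1123 FPKM. EIF4EBP1, the gene of the inhibitor 4E-BP1, was the third, with 262, 249 and 273 FPKM. These 3 genes and EIF4G1 (224 ± 6.0 FPKM, SD, n = 3) and EEF1B2 (173 ± 6.76) each stood apart from the next gene in the order without overlap. EIF3K (125 ± 5.21), EIF5A (118 ± 4.48) and EIF3D (114 ± 6.74) followed, and their libraries overlapped between neighbours. EIF4E, which binds the cap itself, had 9.62 ± 0.494 FPKM. Levels of the 13 eIF3 subunit genes ran from 6.66 ± 0.824 FPKM for EIF3C to 125 ± 5.21 for EIF3K.

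Several of these levels carry a counting limit. EEF1G, which encodes the gamma subunit of eEF1B, was listed at 0 in all 12 libraries and was not tested. In GENCODE release 29, 99.9% of its exon bases (chr11:62559601-62574086, GRCh38) lie in the exons of another gene on the same strand, AP002990.1, itself at 0 in DMSO. EIF4A1, the main eIF4A helicase, had only 3.19 ± 0.248 FPKM in DMSO, and 29.8% of its exon bases are shared with the readthrough gene SENP3-EIF4A1. EIF3C has the near-identical copy EIF3CL, and 17.4% of the exon bases of EIF6 lie in AL121753.1 on the same strand. How reads in shared sequence were counted is not given in the sources used here, so the values of these 4 genes are uncertain. Strand use is not given either, and 16 members share exon bases with a gene on the opposite strand, most of all EIF2B1, with 14.8% in DDX55. EIF2B3 and EIF2B2 rest on the fewest reads, with an estimated 7 and 16 reads in their lowest combination library.

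**Figure D1:**
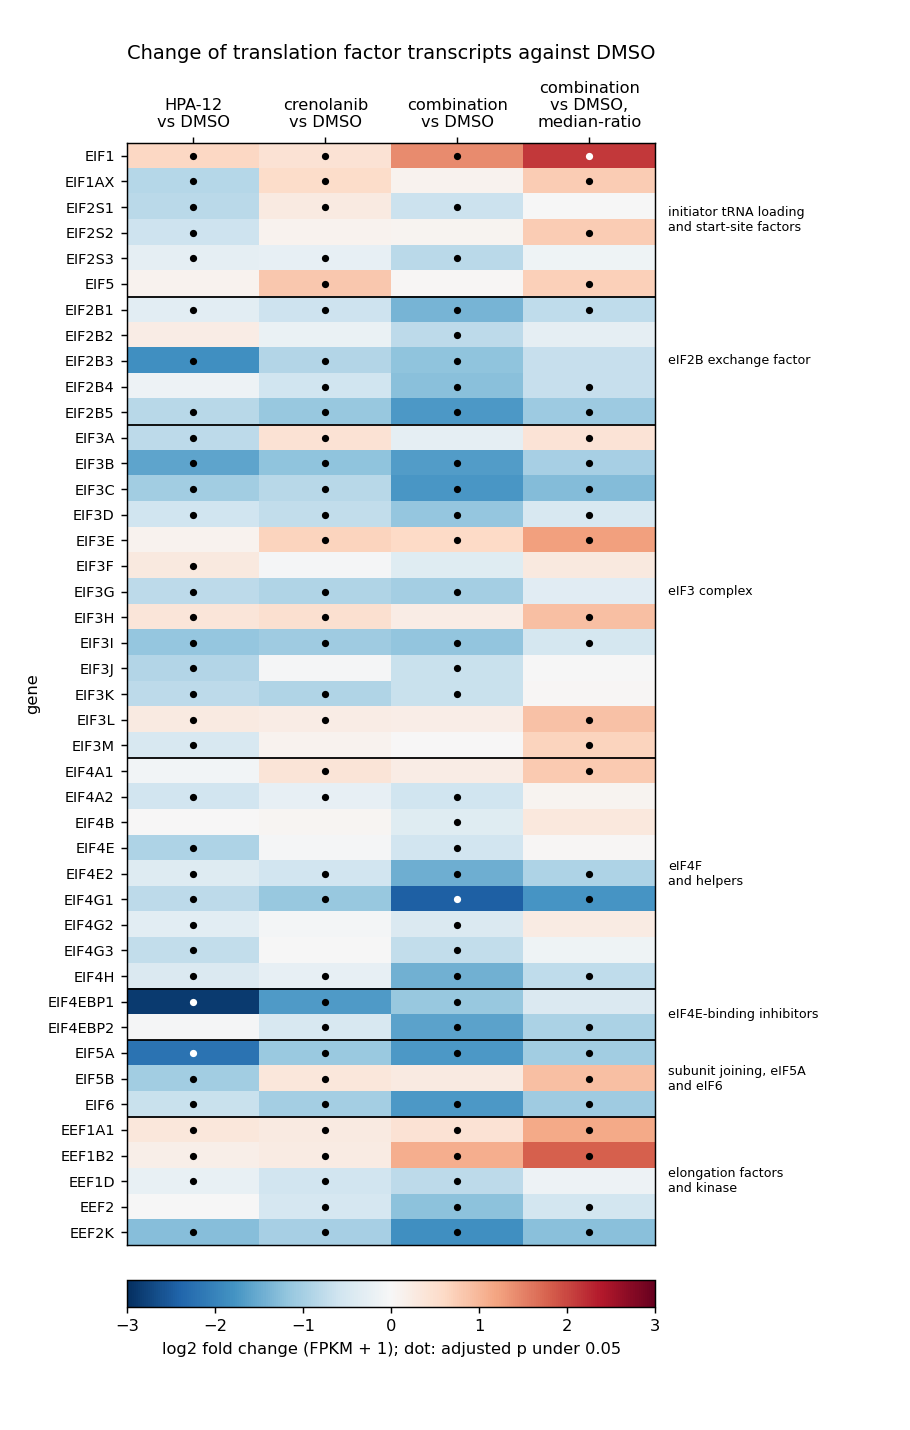
Log2 fold change (FPKM + 1) of the 43 tested members against DMSO, with genes as rows in groups of related function and 1 column per comparison; the last column repeats the combination after median-ratio scaling. Black or white dots mark an adjusted p under 0.05; HPA-12 lowered 29 members and raised 6, and the combination column turns lighter or red for many members after scaling.

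HPA-12 vs DMSO asked how these transcripts differed after exposure to HPA-12 alone. Of 43 members tested, 29 fell and 6 rose, where 34.1% of all genes fell and 43.2% rose (limma, adjusted p under 0.05). The median change was -0.57 log2 units, against 0.09 over all tested genes. In 36 of 43 members the HPA-12 libraries lay wholly above or below the DMSO libraries, as in 79.5% of all genes. Changes are log2 differences of FPKM + 1 with the standard error of the fit, a scale that understates the changes of genes at low level.

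The largest fall was that of EIF4EBP1 (ENSG00000187840), from 262, 249 and 273 FPKM in DMSO to 34.6, 38.1 and 32 FPKM with HPA-12. All 3 treated libraries lay far below every DMSO library. The change was -2.87 ± 0.074, adjusted p = 3.4e-14. Its relative EIF4EBP2 had 46.8 ± 1.34 and 45.6 ± 0.941 FPKM (-0.036 ± 0.054, adjusted p = 0.551).

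EIF5A (ENSG00000132507), the hypusine-bearing factor that helps ribosomes past difficult peptide bonds, went from 116, 115 and 123 to 24.6, 24.2 and 25.5 FPKM. The HPA-12 libraries were close together and far below DMSO (-2.21 ± 0.055, adjusted p = 5.1e-15). EIF5B, the GTPase that joins the ribosomal subunits, fell by 1.04 ± 0.089 to 4.87 ± 1.03 FPKM. EIF6, which keeps the large subunit from joining too early, had 62.4, 63.8 and 66.4 FPKM in DMSO, against 43.9, 36.5 and 39.8 under HPA-12 (-0.67 ± 0.063, adjusted p = 6.7e-08), again without overlap.

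Among the factors that load the initiator tRNA and select the start site, 4 of 6 fell and 1 rose. EIF1AX, the gene of eIF1A (-0.85 ± 0.051), and 3 eIF2 subunit genes, EIF2S1 (-0.82 ± 0.07), EIF2S2 (-0.62 ± 0.069) and EIF2S3 (-0.26 ± 0.046), fell. EIF2S1, the alpha subunit that stress kinases phosphorylate, had 17.2, 16.4 and 16.6 FPKM in DMSO, against 8.0, 10.1 and 9.23 under HPA-12. EIF1, which guards the choice of the start codon, rose from 83.9, 79.9 and 84.3 to 126, 128 and 132 FPKM, the largest rise of any member with HPA-12 (0.63 ± 0.036, adjusted p = 1.2e-10). EIF5, the GTPase activator of eIF2, had 0.10 ± 0.046, adjusted p = 0.0564, which passed without HPA-12 library 1 (adjusted p = 0.014) or DMSO library 2 (adjusted p = 0.0336).

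Of the 5 eIF2B subunit genes, 3 fell. EIF2B3 (gamma) went from 7.83, 7.17 and 7.88 to 1.25, 1.41 and 1.63 FPKM (-1.83 ± 0.11), a larger relative fall than that of EIF2B5, the catalytic epsilon subunit, from 23.8 ± 0.760 to 13 ± 0.761 FPKM (-0.82 ± 0.064). EIF2B1 (alpha) fell by 0.31 ± 0.05. EIF2B4 (delta, -0.15 ± 0.074, adjusted p = 0.0665) and EIF2B2 (beta, 0.22 ± 0.10, adjusted p = 0.0586) did not pass, though EIF2B2 passed, as a rise, without DMSO library 3 (adjusted p = 0.0221), HPA-12 library 1 (0.0318) or combination library 1 (0.0268) or 3 (0.0476), and EIF2B4, as a fall, without crenolanib library 3 (0.0313).

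The genes of the eIF3 complex, the scaffold of the initiating small subunit, split into 9 that fell, 3 that rose and 1 that did not pass. EIF3B fell from 67.5, 63.4 and 63.5 to 21.7, 19.9 and 21.1 FPKM (-1.59 ± 0.045, adjusted p = 2.2e-14). EIF3I (-1.15 ± 0.05), EIF3C (-1.04 ± 0.12), EIF3J (-0.89 ± 0.077), EIF3G (-0.79 ± 0.044), EIF3K (-0.79 ± 0.042), EIF3A (-0.77 ± 0.047), EIF3D (-0.60 ± 0.046) and EIF3M (-0.49 ± 0.063) fell too. EIF3H went the other way, from 56.7, 49.7 and 51.2 to 64.7, 69.3 and 70 FPKM (0.37 ± 0.053), with EIF3F (0.29 ± 0.057), from 14.7, 13.1 and 14.6 to 17.9, 17.1 and 17.3 FPKM, and EIF3L (0.27 ± 0.035). EIF3E had 0.10 ± 0.068, adjusted p = 0.192, and passed without HPA-12 library 1 (0.18, adjusted p = 0.0137). The largest rise was thus 0.37 log2 units and the largest fall -1.59. The subunits EIF3F, EIF3H and EIF3L belong to the octamer core of the complex, as do EIF3A, EIF3C, EIF3K and EIF3M, which fell, whereas EIF3B, EIF3G and EIF3I form a module of their own.

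**Figure D2:**
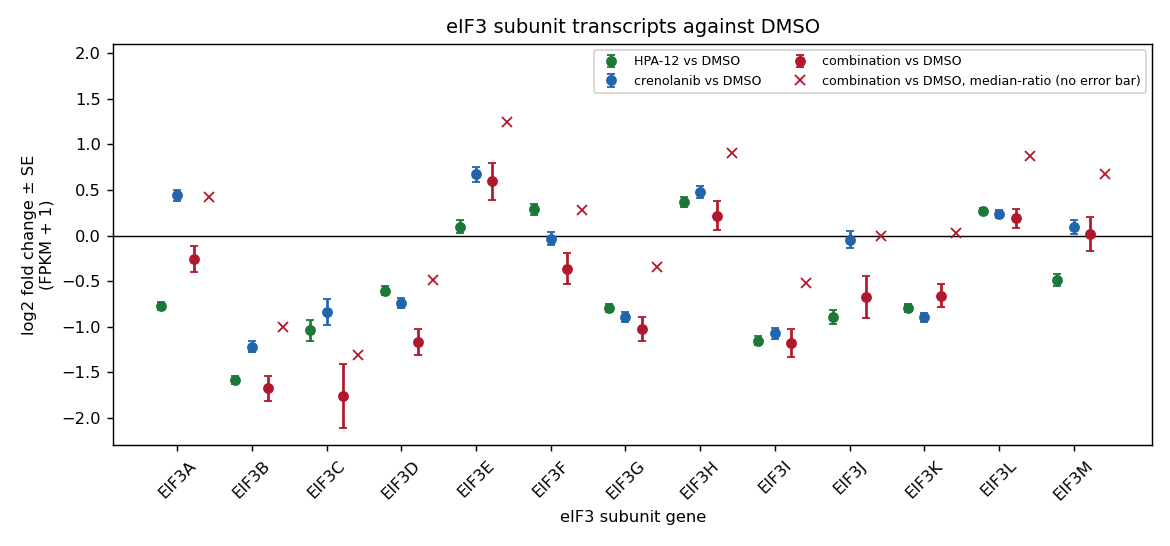
Log2 fold change (FPKM + 1) with its standard error for the 13 eIF3 subunit genes against DMSO, in green for HPA-12, blue for crenolanib and red for the combination; crosses repeat the combination after median-ratio scaling. EIF3B, EIF3C, EIF3D, EIF3G and EIF3I lie below 0 in every comparison shown, and EIF3E, EIF3H and EIF3L above it.

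In the eIF4F group 7 of 9 genes fell and none rose. EIF4E went from 9.85, 9.96 and 9.06 to 4.05, 4.99 and 4.77 FPKM (-0.93 ± 0.077, adjusted p = 1.3e-08). The scaffold EIF4G1 went from 224 ± 6.0 to 129 ± 6.47 FPKM (-0.79 ± 0.039), and EIF4G3 (-0.73 ± 0.082) and EIF4G2, which lacks the eIF4E site (-0.32 ± 0.038), fell with it. The helicase EIF4A2 (-0.57 ± 0.049), its helper EIF4H (-0.44 ± 0.038) and the weak cap binder EIF4E2 (-0.38 ± 0.066) fell as well. EIF4B, another helper of the helicase, had 80.9 ± 4.07 FPKM in DMSO, against 81 ± 1.80 under HPA-12 (0.0023 ± 0.041, adjusted p = 0.962).

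Of the 5 tested elongation genes 2 rose, 2 fell and 1 did not pass. EEF1A1 rose from 1169.6, 1120.4 and 1123 to 1455, 1397 and 1450.2 FPKM (0.33 ± 0.03, adjusted p = 3.8e-08). EEF1B2, a subunit of its exchange factor, rose by 0.18 ± 0.046, and EEF1D, another subunit, fell by 0.21 ± 0.059. EEF2 had 1738, 1561 and 1599 FPKM with HPA-12, values on both sides of the DMSO range (-0.0092 ± 0.035, adjusted p = 0.817). EEF2K, the kinase that inhibits eEF2, fell from 14.3, 15.1 and 16 to 5.70, 6.0 and 5.35 FPKM (-1.27 ± 0.07, adjusted p = 8e-11).

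The question of crenolanib vs DMSO was how the members differed after exposure to crenolanib by itself. Of 43 members 22 fell and 12 rose, where 39.8% of all genes fell and 36.6% rose. The median change was -0.23 (all genes -0.04), and 35 members did not overlap between the groups, as 77.8% of all genes. The comparison shares its 3 DMSO libraries with that of HPA-12, so values of both are given side by side without a measure of likeness.

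The falls were led by EIF4EBP1, at 68, 91.2 and 82.5 FPKM with crenolanib (-1.70 ± 0.092, adjusted p = 3.2e-10). All 3 libraries lay below DMSO and above the HPA-12 libraries. EIF3B had 26.7, 27.8 and 27.5 FPKM (-1.22 ± 0.056), EIF4G1 102, 103 and 99 (-1.14 ± 0.049) and EIF2B5 9.75, 11 and 10.2 (-1.13 ± 0.08), against 24.7, 23.3 and 23.5 for EIF2B5 in DMSO. None of these 3 overlapped with DMSO. EIF5A fell by 1.12 ± 0.068 to 47.3, 57.7 and 56.9 FPKM and EIF6 by 1.03 ± 0.078 to 31.3, 27.6 and 34.5 FPKM. EIF3I (-1.07 ± 0.062), EEF2K (-0.99 ± 0.087), EIF3G (-0.90 ± 0.054), EIF3K (-0.90 ± 0.052), EIF2B3 (-0.88 ± 0.14), EIF3C (-0.84 ± 0.15) and EIF3D (-0.74 ± 0.057) fell by more than 0.7 log2 units.

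The rises were led by EIF5, from 25.1, 25.7 and 24 FPKM in DMSO to 42.9, 45.5 and 44.5 with crenolanib (0.80 ± 0.056, adjusted p = 2.6e-09). EIF3E rose from 9.05, 8.28 and 7.98 to 14, 14.3 and 13.7 FPKM (0.67 ± 0.084), EIF1AX from 16.5, 16.3 and 16.6 to 24.4, 25.5 and 24 (0.56 ± 0.063) and EIF3H to 68.8, 78 and 74.5 (0.48 ± 0.066). In each of these genes the crenolanib libraries lay above every DMSO library. EIF3A (0.44 ± 0.058), EIF1 (0.43 ± 0.044), EIF5B (0.34 ± 0.11), EIF2S1 (0.28 ± 0.087) and EIF3L (0.23 ± 0.043) rose too, with EIF4A1 (0.38 ± 0.12). EIF4A1 (adjusted p = 0.0843) and EIF5B (adjusted p = 0.0504) did not pass without crenolanib library 2.

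Of the start-site factors, 4 of 6 thus rose, 1 fell, EIF2S3 (-0.26 ± 0.057, which did not pass after upper-quartile scaling), and EIF2S2 had 0.11 ± 0.086, adjusted p = 0.237. Of the 13 eIF3 genes 4 rose and 6 fell, and of the 9 eIF4F genes 1 rose and 4 fell. Of the 5 eIF2B genes 4 fell, and EIF2B2 had -0.20 ± 0.13, adjusted p = 0.168. EIF4E had 9.42, 8.75 and 10.1 FPKM, values that overlapped with DMSO (-0.027 ± 0.095, adjusted p = 0.804). EEF1A1 rose by 0.28 ± 0.037 to 1378, 1383 and 1377 FPKM and EEF1B2 by 0.24 ± 0.058. EEF2 fell to 1184, 1154 and 1161 FPKM (-0.49 ± 0.043, adjusted p = 3.3e-08), so EEF1A1 was the more abundant of the pair per length in every crenolanib library, whereas EEF2 was in every DMSO library.

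**Figure D3:**
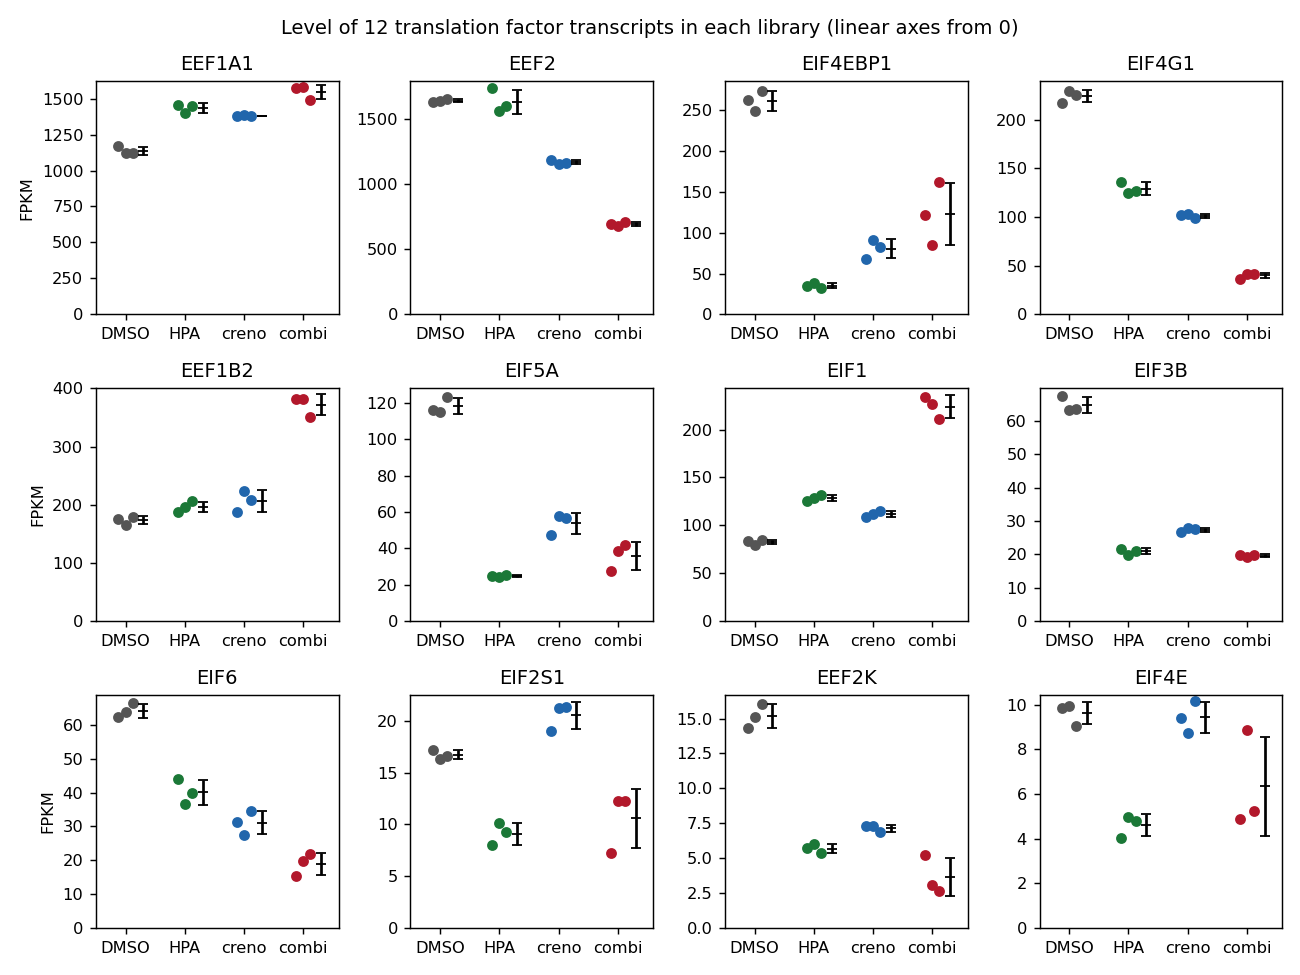
FPKM of 12 members in each library (points; linear axes from 0) with the mean and SD of the 3 libraries of a group beside them, for DMSO, HPA-12 (HPA), crenolanib (creno) and the combination (combi). EIF4EBP1 and EIF5A are lowest with HPA-12, EIF4G1 and EEF2 lowest with the combination, and EIF1 and EEF1B2 highest with it.

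Crenolanib vs HPA-12, a comparison that uses no DMSO library, asked where the agents differed. Of 43 members 20 were higher and 11 lower with crenolanib, where 29.7% of all genes were higher and 35.2% lower, and the median difference was 0.11 (all genes -0.05). EIF1AX had 8.15, 8.74 and 9.25 FPKM with HPA-12 and 24.4, 25.5 and 24 with crenolanib (1.40 ± 0.067, adjusted p = 7.8e-11). EIF5B had 3.72, 5.71 and 5.18 and 13.9, 14.8 and 13.5 FPKM (1.37 ± 0.12, adjusted p = 7e-08). In both genes every crenolanib library had more than 2 times the mean of HPA-12. EIF3A (1.21 ± 0.061), EIF4EBP1 (1.18 ± 0.10), EIF2S1 (1.09 ± 0.093), EIF5A (1.09 ± 0.072), EIF2B3 (0.95 ± 0.15), EIF4E (0.90 ± 0.10) and EIF3J (0.84 ± 0.10) were higher too.

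Against DMSO, 4 members had fallen with HPA-12 and risen with crenolanib, namely EIF1AX, EIF2S1, EIF3A and EIF5B, and 0 had done the reverse. The most lowered with crenolanib relative to HPA-12 were EEF2 (1738, 1561 and 1599 against 1184, 1154 and 1161 FPKM; -0.48 ± 0.046, adjusted p = 2.1e-07) and EIF2B4 (8.07, 8.55 and 8.22 against 6.43, 6.51 and 4.71 FPKM; -0.44 ± 0.10). Both differences were smaller than those of the 9 members named as higher. Those with no called difference included EEF1A1 (-0.056 ± 0.04), EIF3L (-0.038 ± 0.046), EIF2S3 (0.007 ± 0.061) and EIF4B (0.046 ± 0.054), and a p that misses the threshold does not show that they were alike.

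**Figure D4:**
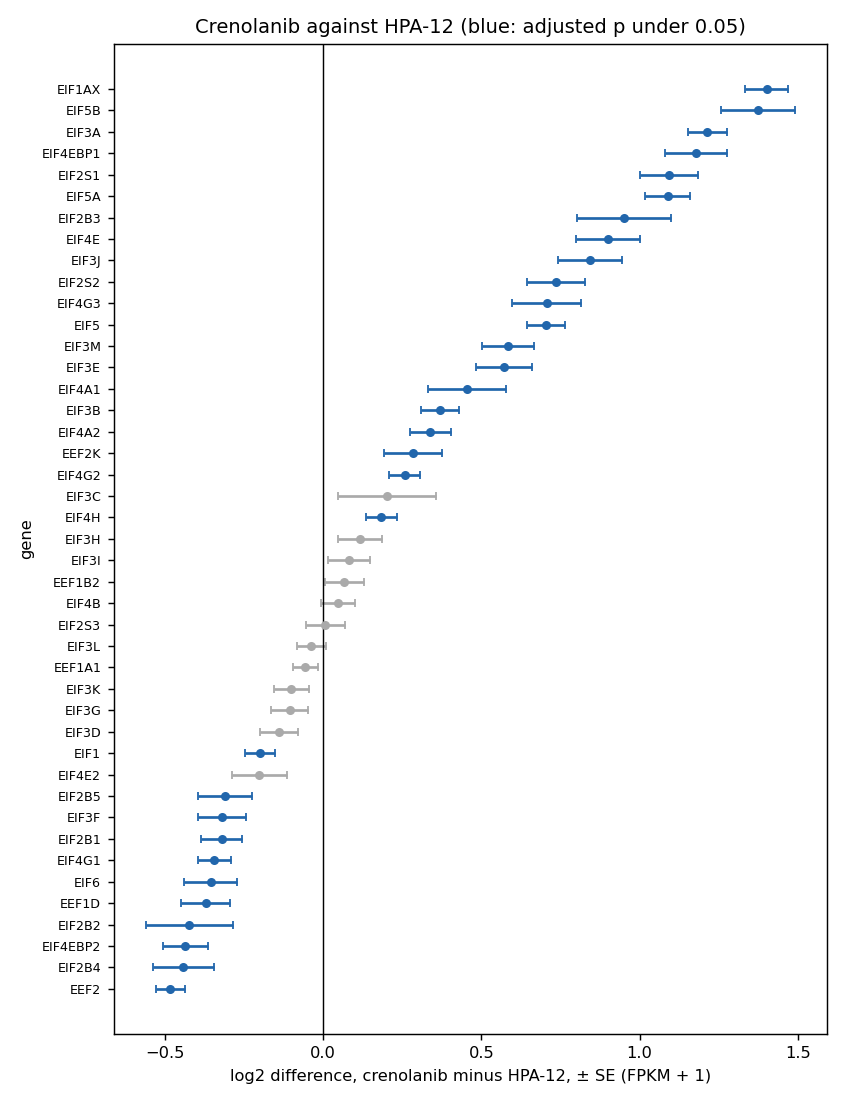
Log2 difference between crenolanib and HPA-12 (FPKM + 1; positive means higher with crenolanib) with its standard error for the 43 tested members, sorted, with adjusted p under 0.05 in blue and the others in grey. EIF1AX and EIF5B lie at the top with 1.40 and 1.37 log2 units, and EEF2 at the bottom.

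Combination vs DMSO asked about the joint exposure. As deposited, 29 of 43 members fell and 4 rose, where 49.9% of all genes fell and 11.2% rose, and the median change was -0.74 against -0.62 for all genes. After median-ratio scaling 15 fell and 13 rose, where 26.4% of all genes fell and 20.6% rose, and the median was -0.13 against -0.12. As deposited, 36 members did not overlap with DMSO, as 71.4% of all genes. A fall as deposited thus need not be a fall relative to the other genes. Under the deposited, median-ratio and upper-quartile scales alike, 12 members fell and 4 rose, where 22.8% of all genes fell and 11.2% rose.

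The 12 members that fell on all 3 scales were EEF2, EEF2K, EIF2B1, EIF2B5, EIF3B, EIF3C, EIF4E2, EIF4EBP2, EIF4G1, EIF4H, EIF5A and EIF6. Among them, EIF3C and EIF6 have values that are uncertain through shared sequence. EIF3C had an estimated 18 reads in its lowest combination library. Its copy EIF3CL had 1.85 ± 0.135 FPKM in DMSO and 1.67 ± 0.396 with the combination. EIF4G1, the scaffold of eIF4F, went from 217, 229 and 225 FPKM in DMSO to 36.7, 41.8 and 41.2 with the combination (-2.46 ± 0.12, adjusted p = 1.9e-10, or -1.78, adjusted p = 3.7e-07, after median-ratio scaling). Its levels fell in order from DMSO to HPA-12, crenolanib and the combination, with no overlap between neighbouring groups. EEF2K had 5.24, 3.09 and 2.65 FPKM (-1.83 ± 0.21, or -1.25 scaled), EIF6 15.3, 19.6 and 21.8 (-1.73 ± 0.19, or -1.06) and EIF5A 27.4, 38.4 and 41.9 (-1.71 ± 0.16, or -1.03). In all 3 genes the highest combination library was below the lowest DMSO library.

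EEF2 had 694, 677 and 709.7 FPKM with the combination (-1.24 ± 0.10, or -0.55 scaled), and EEF1A1 1571, 1582 and 1489 (0.44 ± 0.09, adjusted p = 0.00053, or 1.14 scaled). EEF1A1 was thus more than 2 times as abundant per length as EEF2 in each combination library. EIF4EBP2 fell to 15.1 ± 4.82 FPKM (-1.61 ± 0.16, or -0.95), and EIF4H to 39.2 ± 4.98 (-1.44 ± 0.11, or -0.76). EIF2B5 (-1.71 ± 0.19, or -1.09) and EIF2B1 (-1.40 ± 0.15, or -0.75) fell on both scales, as did EIF3B (-1.67 ± 0.14, or -1.0). EIF4EBP1 had 122, 85.2 and 162 FPKM (-1.13 ± 0.22, adjusted p = 0.00048), which did not pass after median-ratio scaling (-0.44, adjusted p = 0.149).

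The 4 members that rose on all 3 scales were EIF1, EEF1B2, EIF3E and EEF1A1. EIF1 reached 234, 226 and 211 FPKM (1.42 ± 0.11, adjusted p = 2.2e-08, or 2.12 scaled) and EEF1B2 383, 382 and 352 FPKM (1.10 ± 0.14, adjusted p = 5.8e-06, or 1.79 scaled). Every combination library of these genes lay above every library of the other groups. EIF3E had 14, 13.9 and 11.9 FPKM (0.59 ± 0.20, or 1.24), and as deposited it did not pass without combination library 1 (adjusted p = 0.0818) or library 2 (adjusted p = 0.0812).

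Other members depended on the scale or on 1 library. EIF4E had 4.89, 8.89 and 5.25 FPKM, with library 2 close to DMSO (-0.57 ± 0.23, adjusted p = 0.0418, and 0.042, adjusted p = 0.897 scaled), and it did not pass without DMSO library 1 (adjusted p = 0.0568) or 2 (0.0581), crenolanib library 1 (0.0504) or combination library 1 (0.213) or 3 (0.181). EIF2S1 had 7.26, 12.2 and 12.3 FPKM (-0.65 ± 0.21, adjusted p = 0.0149, and -0.0027 scaled), and did not pass without combination library 1 (-0.42, adjusted p = 0.162). Without the same library EIF2B3 (-0.53, adjusted p = 0.14, against -1.20 ± 0.34 with it, or -0.69, adjusted p = 0.139, scaled) and EIF2B2 (-0.29, adjusted p = 0.471, against -0.78 ± 0.31, or -0.28, adjusted p = 0.525, scaled) did not pass either, nor did EIF2B2 without DMSO library 3 (adjusted p = 0.0529) or combination library 2 (0.055). EIF3J (-0.67 ± 0.23, or -0.0064 scaled) and EIF4B (-0.37 ± 0.12, or 0.32) did not pass without combination library 1 (adjusted p = 0.0842 and 0.0603) or 3 (0.0923 and 0.0967), and EIF4G3 (-0.74 ± 0.25, or -0.13) without combination library 2 (0.0768) or 3 (0.0786). None of these 3 passed after median-ratio scaling, but EIF4B passed as a rise after upper-quartile scaling (0.43). EIF3F (-0.36 ± 0.17, adjusted p = 0.0789) passed as deposited without DMSO library 2 (0.0282), and its sign turned after scaling (0.28, adjusted p = 0.277). EIF3A, EIF1AX, EIF2S2, EIF5, EIF3H, EIF3L, EIF3M, EIF4A1 and EIF5B had no called change as deposited and rose after median-ratio scaling, by 0.42 for EIF3A to 0.91 for EIF5B.

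Adding HPA-12 to crenolanib (combination vs crenolanib) lowered 23 members and raised 2 as deposited, where 48.6% of all genes fell and 5.97% rose. After median-ratio scaling 2 fell and 10 rose, where 13.5% and 12.2% of all genes did. EIF1 (0.99 ± 0.11, or 1.68 scaled) and EEF1B2 (0.85 ± 0.15, or 1.54) rose and EIF4G1 (-1.33 ± 0.12, or -0.65) and EIF4H (-1.19 ± 0.12, or -0.52) fell on both scales. Without combination library 1, and likewise without library 3, 14 members fell as deposited.

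Adding crenolanib to HPA-12 (combination vs HPA-12) raised 10 members and lowered 16 as deposited, where 11.1% of all genes rose and 50.6% fell, and 25 and 3 after scaling, where 20.9% rose and 25.4% fell. Without combination library 2, 5 members rose as deposited. EIF4EBP1 (1.75 ± 0.23, or 2.46 scaled) and EIF5B (1.29 ± 0.27, or 1.95), with 12.4, 13.5 and 13.9 FPKM in the combination, were higher with both compounds than with HPA-12. EIF4G1 (-1.67 ± 0.12, or -0.96) and EIF4EBP2 (-1.58 ± 0.16, or -0.89) were lower.

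The interaction tested whether the effect of HPA-12 differed in the presence of crenolanib, as the difference between combination vs crenolanib and HPA-12 vs DMSO. It passed for 23 of 43 members as deposited, as for 64.3% of all genes, 12 positive and 11 negative, where 14.6% of all genes were positive and 49.7% negative. After median-ratio scaling 25 were positive and 0 negative, where 24.4% and 28.6% of all genes were. As deposited and under 3 other scalings alike, 10 were positive and 0 negative, where 13.3% of all genes were positive and 28.6% negative. EIF4EBP1 had the largest value (3.44 ± 0.24, adjusted p = 3.4e-08, or 4.15 scaled). HPA-12 lowered it by 2.87 log2 units in the absence of crenolanib, and in its presence the libraries had 68, 91.2 and 82.5 FPKM without and 122, 85.2 and 162 FPKM with HPA-12 (0.57 ± 0.23, adjusted p = 0.051, or 1.25, adjusted p = 0.0021, scaled). As deposited, that difference passed without crenolanib library 2 (0.66, adjusted p = 0.0201), combination library 2 (0.81, adjusted p = 0.0237), HPA-12 library 2 (0.0426) or 3 (0.0377) or DMSO library 2 (0.0497). EIF5A followed (1.62 ± 0.18, or 2.31 scaled), while EIF4EBP2 (-1.10 ± 0.18) and EIF5 (-0.87 ± 0.15) were negative as deposited and did not pass after median-ratio scaling (-0.42, adjusted p = 0.095, and -0.18, adjusted p = 0.364). After upper-quartile scaling EIF4EBP2 passed (-0.55, adjusted p = 0.0257) and EIF5 did not (-0.30, adjusted p = 0.119).

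Genes around these factors were described from 5 lists, whose counts stand beside the shares of all genes: HPA-12 raised 43.2% and lowered 34.1%, crenolanib raised 36.6% and lowered 39.8%, and the combination raised 11.2% and lowered 49.9% as deposited, or 20.6% and 26.4% scaled. Among 14 regulators of eIF2 and of the integrated stress response, HPA-12 raised 4 and lowered 6, crenolanib raised 6 and lowered 3, and the combination raised 3 and lowered 4 as deposited (3 and 2 scaled). EIF2AK2, the kinase PKR, had 2.89 ± 0.266 FPKM in DMSO and, in the HPA-12 group, 9.81 ± 1.04 (1.47 ± 0.088), 7.61 ± 1.08 with crenolanib (1.14 ± 0.11) and 1.77 ± 0.532 with both (-0.50 ± 0.27, adjusted p = 0.113, or -0.028 scaled). PPP1R15A, the phosphatase subunit that reverses eIF2 phosphorylation, rose in all 3 comparisons, from 42.5 ± 1.61 to 78.7 ± 3.15, 145 ± 8.0 and 129 ± 13.6 FPKM (1.58 ± 0.13 with both, or 2.27 scaled). ATF4, the transcription factor of this response, rose in all 3 as well (0.87 ± 0.037, 0.68 ± 0.046 and 0.64 ± 0.11, the last 1.33 scaled), while TRIB3, a target of ATF4, fell in all 3 as deposited (-1.76 ± 0.14, -1.42 ± 0.17 and -1.02 ± 0.42, the last -0.46, adjusted p = 0.419, scaled). EIF2AK3, the kinase PERK, rose from 0.560 ± 0.0206 FPKM in the solvent group to 0.989 ± 0.168 under crenolanib (0.35 ± 0.10). Its mean was under 1 FPKM in every group, and a gene was tested only if 3 libraries reached that level. The solvent and HPA-12 libraries (mean 0.697 ± 0.0632 for the latter) lay below it, so the gene was tested through its higher libraries elsewhere. This call therefore rests on values near the filter and says little.

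Of 21 genes of mTOR and 4E-BP signalling, HPA-12 raised 7 and lowered 10, crenolanib raised 6 and lowered 12, and the combination raised 3 and lowered 11 (4 and 6 scaled), so the share of the list lowered by the combination lay near that of all genes on both scales. DDIT4, which restrains mTOR, went from 47.9 ± 0.943 FPKM to 80.2 ± 2.12, 94.5 ± 3.94 and 178 ± 16.3, and RICTOR, a subunit of the second mTOR complex, from 1.86 ± 0.0368 to 4.83 ± 1.0, 8.99 ± 0.722 and 5.38 ± 0.572. Both rose in all 3 comparisons, with both compounds by 1.87 and 1.15 (scaled 2.56 and 1.72). RPTOR, the defining subunit of the first mTOR complex (-1.09 ± 0.069, -1.05 ± 0.086 and -2.55 ± 0.21), and LARP1, which binds TOP mRNAs (-1.15 ± 0.057, -1.0 ± 0.07 and -1.75 ± 0.17), fell in all 3 as deposited, with -2.06 (adjusted p = 2.5e-06) and -1.10 (adjusted p = 0.00038) in the combination after scaling.

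Of 23 other and termination factors tested (27 listed), 14 fell and 4 rose with HPA-12, 11 fell and 8 rose with crenolanib, and 14 fell and 4 rose with the combination (6 and 7 scaled). The ribosome recycling factor ABCE1 fell with HPA-12 from 9.27 ± 0.305 to 1.91 ± 0.454 FPKM (-1.83 ± 0.091) and had 9.53 ± 0.0880 with crenolanib (0.037 ± 0.11, adjusted p = 0.77). The helicase DDX3X rose in all 3 comparisons (0.58 ± 0.048, 1.35 ± 0.059 and 0.81 ± 0.14, the last 1.49 scaled). Of 12 modifying enzymes tested (15 listed), 9 fell and 0 rose with HPA-12, 9 fell and 1 rose with crenolanib, and 8 fell and 0 rose with the combination (5 and 1 scaled). DPH2, needed to make the diphthamide of eEF2, fell from 24.6 ± 1.01 to 4.99 ± 0.499, 7.04 ± 0.614 and 6.33 ± 4.52 FPKM, and EEF1AKMT1, which methylates eEF1A, from 29.7 ± 2.49 to 7.76 ± 1.08, 12.5 ± 2.38 and 8.33 ± 3.12 (with both compounds -1.98 and -1.78, or -1.37 and -1.14 scaled). Of 10 mitochondrial translation factors tested (11 listed), 5 fell and 3 rose with HPA-12, 2 fell and 3 rose with crenolanib, and 6 fell and 0 rose with the combination (2 and 0 scaled). TUFM, the mitochondrial EF-Tu, fell in all 3 (-1.16 ± 0.052, -1.27 ± 0.064 and -1.62 ± 0.16, the last -0.94, adjusted p = 0.00099, scaled).

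The 10 members with a start-site pyrimidine tract, printed above, had a median change of -0.14 with HPA-12, 3 risen and 5 fallen, against -0.79 for the 25 tested members whose promoters lack it, 1 risen and 19 fallen. With crenolanib the medians were -0.13 (2 risen, 5 fallen) and -0.47 (6 risen, 14 fallen). With the combination they were -0.48 (2 risen, 6 fallen) and -1.20 (1 risen, 20 fallen) as deposited, and 0.19 (3 risen, 2 fallen) and -0.69 (5 risen, 13 fallen) scaled. Of 8 tested members known as TOP mRNAs from the literature, 4 rose and 1 fell with HPA-12 (median 0.14), and 4 rose and 2 fell with crenolanib (0.15). With the combination 3 rose and 3 fell (-0.072) as deposited, and 4 rose and 1 fell (0.61) scaled. Genes with a tract went both ways, since EEF1A1 and EEF1B2 rose in all 3 comparisons while EIF3D fell in all 3, as deposited and after median-ratio scaling (not after upper-quartile scaling in the combination), and EIF3K fell with each single agent. Of the 8 members with an E-box, 6 fell and 1 rose with HPA-12 (median -0.79, against -0.49 for the 27 tested members with promoters that lack it), and 5 fell and 0 rose with crenolanib (-0.57 against -0.23). With the combination 7 fell and 0 rose as deposited (-0.93 against -0.78), and 3 fell and 0 rose scaled (-0.33 against -0.13). MYC, which binds such sites with MAX, had 158 ± 2.43 FPKM in DMSO and, in the HPA-12 group, 6.88 ± 0.232, 34.8 ± 3.29 with crenolanib and 17.8 ± 0.284 with both (-3.08, or -2.41 scaled). Of the pair shown above with 2 E-boxes, EIF4E fell with HPA-12 and was not called with crenolanib, and EIF4G1 fell in all 3 comparisons. Of all tested genes, HPA-12 lowered 34.1% and raised 43.2%, and crenolanib lowered 39.8% and raised 36.6%. The combination lowered 49.9% and raised 11.2% as deposited, or 26.4% and 20.6% scaled. Changes of other genes with a tract or an E-box were not counted, so these contrasts cannot be called particular to the members. The counts describe the members and were not tested, and binding was not measured.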

How the data were processed

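RNA of 12 libraries was measured. The deposited table gives FPKM, fragments scaled by gene length and library size, as computed by the authors (per the file headers). How reads were aligned and counted, with which build and annotation, is not given in the sources used here. Each of the 12 value columns matched 1 library by name, with 0 left over, and 20011 of 20036 genes matched a symbol. Depth was estimated from the steps of low FPKM values: over 1364 genes whose step could be read, 96.1 to 98.7% of low values in the crenolanib and combination libraries were whole reads within 0.01. The absolute scale rests on GENCODE 29 lengths, which matched for 25.4% of these genes, so depths and read numbers are estimates, and intervals from them are not given.

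The 11149 genes that reached 1 FPKM in 3 or more libraries (holding 43 of 44 members) were tested on log2 of FPKM plus a pseudocount of 1 with limma 3.58.1 (R 4.3.3, statmod 1.5.0), as 1 factor with 4 levels, with 1 weight per group, a mean-variance trend and robust moderation. Group weights were used because the combination libraries vary more. On simulated data, 200 of 11149 genes were changed. For combination vs DMSO, equal weights gave 287 false calls and group weights 26, with 40% of changes of 1 log2 unit recovered against 80% with equal weights. For HPA-12 vs DMSO, group weights gave 52 false calls and recovered 97%, against 2 and 62% with equal weights. With group weights, false calls were in both cases a larger share of the calls than the threshold of 0.05 allows. Far more genes were called in the data, so these rates need not hold there. P-values are two-sided and adjusted by Benjamini-Hochberg over all genes tested, with a threshold of 0.05, in 7 comparisons. Words such as rose and fell are used for values past it.

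Members and gene lists were chosen with earlier results of these data known. Levels in every library are given for EEF1A1, EEF2, EIF4E, EIF4EBP1, EIF2S1 and EIF6, and for up to 4 members each way per comparison with DMSO (2 each way otherwise) with the largest called change, a mean of at least 5 FPKM and no overlap. From each pathway list up to 2 genes each way per comparison with DMSO could be named, as could MYC, ATF4, EIF2AK3, PPP1R15A and DDIT4. Levels of EIF2B3 in every library were added after its values were seen. Alternatives were a pseudocount of 0.1, other filters and scalings, equal weights, fits of 2 groups, a replicate block and leaving out each library. Promoter sequences are from RefSeq (GRCh38.p14). No pair of libraries held identical values.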

Additional observations from a re-analysis of the deposited data

Results flagged for a closer look

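For 10 members the effect of HPA-12 in the presence of crenolanib differed from its effect alone, by the interaction test, with 1 sign as deposited and under 3 other scalings. All 10 values were positive, a sign and rule that 13.3% of all tested genes met. On the log2 scale they were 3.44 for EIF4EBP1, 1.62 for EIF5A, 1.51 for EIF2B3, 1.13 for EIF3B, 1.05 for EIF3I, 1.03 for EIF3K, 0.96 for EIF5B, 0.67 for EEF1B2, 0.66 for EIF3G and 0.36 for EIF1. With HPA-12 alone EIF4EBP1, EIF5A, EIF2B3, EIF3B, EIF3I, EIF3K, EIF5B and EIF3G had fallen, and EEF1B2 and EIF1 had risen. The value of EIF1 did not pass without combination library 1 (0.33, adjusted p = 0.0675) or 2 (0.36, adjusted p = 0.0514; limma), and the other 9 passed without each library in turn. Combination libraries have the lowest depth, and EIF2B3 rests on an estimated 7 reads in 1 of them.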

How the results depend on the processing

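Median-ratio and upper-quartile scaling changed the combination results most. In combination vs DMSO, members risen went from 4 to 13 (median-ratio) and 15 (upper-quartile), and members fallen from 29 to 15 and 12. Direction turned after median-ratio and upper-quartile scaling for EIF3A (0.42 and 0.53), EIF3K (0.031 and 0.14), EIF4A2 (0.093 and 0.20), EIF4B (0.32 and 0.43), EIF4E (0.042 and 0.14) and EIF4G2 (0.25 and 0.36). EIF4B and EIF4G2 passed as falls as deposited and as rises after upper-quartile scaling. EIF3F turned too (0.28 and 0.38, from -0.36), with no value past the threshold. After upper-quartile scaling alone, direction turned for EIF2S1 (0.10) and EIF3J (0.10). In combination vs crenolanib, members risen went from 2 to 10 and 8 under these scalings, 5 with equal weights and 4 with only the groups compared, and members fallen from 23 to 2 and 3. All genes called there went from 6085 to 2863 and 3026. In combination vs HPA-12, members risen went from 10 to 25 and 26 and members fallen from 16 to 3 and 3, and for the interaction from 12 to 25 and 23 and from 11 to 0 and 1. The cause of these changes was not tested. A total without mitochondrial genes raised the members risen with HPA-12 from 6 to 11 and turned EEF2 there to 0.10.

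Other turns of direction were among changes that passed neither as deposited nor under the setting named. With HPA-12 these were EIF4A1 (0.0081) and EIF4EBP2 (0.073) without mitochondrial genes, EIF4EBP2 (0.019) and EEF2 (0.048) after upper-quartile scaling and EIF4B (-0.026) after median-ratio scaling. With crenolanib, without mitochondrial genes and after upper-quartile scaling, they were EIF3F (0.086 and 0.12), EIF3J (0.079 and 0.11), EIF4E (0.091 and 0.12), EIF4G2 (0.062 and 0.093) and EIF4G3 (0.095 and 0.12). Leaving out 1 library gave ranges across 0 with HPA-12 for EIF4B (-0.036 to 0.036) and EEF2 (-0.055 to 0.022), with crenolanib for EIF4E (-0.075 to 0.021) and EIF4G3 (-0.10 to 0.064), and with the combination for EIF2S2 (-0.045 to 0.15), EIF3M (-0.028 to 0.047) and EIF5 (-0.012 to 0.093).

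With genes of a mean of at least 5 FPKM, which leaves fewer genes to test, the genes called numbered 5062 against DMSO for HPA-12 and 5181 for crenolanib, 4652 between the agents and 4565 for the interaction. Equal weights gave 5652 calls in the HPA-12 comparison with DMSO and 4589 between the agents, and the calls of EIF4E2 and EEF1D with HPA-12 and of EIF2S1, EIF2B3 and EIF4A1 with crenolanib ended. Upper-quartile scaling ended the crenolanib calls of EIF2S3, EIF4A2 and EIF4H.

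Leaving out each library in turn gave 14 to 23 members fallen in combination vs crenolanib and 5 to 10 members risen in combination vs HPA-12.

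Deviations of same-numbered libraries were only weakly correlated (r from -0.03 to 0.07), yet 9 of 12 libraries correlated best with their own number. Whether the numbers mark pairs is thus not settled, and the main fit did not use them. With the number as a replicate block, all genes called were 8660 (HPA-12), 8428 (crenolanib) and 6782 (combination) against DMSO, compared with 8619, 8522 and 6808 without it; among members, EIF5 passed with HPA-12 and EIF4E did not with the combination. On simulated data 6% of changes of 0.5 log2 units were recovered in combination vs DMSO with group weights and 40% with equal weights, the latter with 287 false calls against 26. The part of the lower depth of the combination libraries (4.40 to 5.07 M estimated reads) was not tested.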
